A study of Homo sapiens with 8 samples.

Results

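The response of SW480 cells to PrxII depletion was taken from 4 of the 8 mRNA-seq libraries of the series. These were the 2 libraries labelled PRDX2 siRNA and the 2 labelled control siRNA in this line, and the other 4 libraries held the same pair of conditions in HT29 cells. SW480 is an established human colorectal cancer line with a truncated APC protein, and it was grown in RPMI1840 medium with fetal bovine serum. All libraries came from cells transfected for 36 h with PRDX2 siRNA or control siRNA, with no other treatment, and each condition was run in duplicate. The labels do not say whether the duplicates were separate transfections, so p-values measure only the spread between these libraries, which may be technical. The study's methods describe the sequencing for HT29 cells, and the same kit is labelled for SW480 cells.

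PRDX2 encodes peroxiredoxin II (PrxII), a cytosolic thiol peroxidase that reduces hydrogen peroxide through a reactive cysteine and is recycled by thioredoxin. Peroxide that is not removed can oxidize cysteines in signalling proteins. Cells answer oxidants through transcription factors such as NRF2, and several forms of stress through ATF4. In colorectal cells without full-length APC, β-catenin escapes the destruction complex built on the scaffold AXIN1 and drives TCF target genes such as CCND1. The study asked what PrxII does for these APC-mutant cells, and the SW480 libraries let the transcript side of that question be read.

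The 4 SW480 libraries held 8857442 to 9724210 expected counts over 25192 genes, and 14112 genes had at least 10 counts in at least 2 libraries and were tested. Levels are given as counts per 1000000 (CPM) on library sizes scaled by edgeR's TMM method, on which 3 counts were worth 0.303 to 0.347 CPM, and fold changes as log2 of PRDX2 siRNA over control siRNA with the standard error (SE) of the fit. Epithelial markers were abundant, with KRT8 at 2515 to 3208 CPM, EPCAM at 261 to 296 CPM and KRT19 at 688 to 879 CPM. CDH1, the epithelial cadherin, stood at only 25.8 to 30.2 CPM (576 CPM in control HT29 cells), and LGALS4 at 0.303 to 0.578 CPM. Of 13 immune, endothelial and stromal markers, PTPRC, PECAM1 and DCN had no count in any library and CD3E and COL3A1 at most 1, while COL1A1, at 18.7 to 25.3 CPM, was the highest. The 5 of these markers that could be tested gave 0 calls in edgeR and in DESeq2 (1 at an unadjusted p below 0.05) and a median log2 fold change of 0.06. The 8 epithelial identity genes tested gave a median of 0.06, with KRT18, a fall, as their single called gene (12.5%, against 2.08% of all genes called lower).

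The control libraries differed from each other far more than the PRDX2 siRNA libraries did. The chi-square of the counts per degree of freedom was 11.2 between the controls, 2.11 between the PRDX2 siRNA duplicates and 10.7 to 23.6 between a control and a PRDX2 siRNA library. This spread ran along transcript GC content. Across the genes, the log2 ratio of control replicate 1 to control replicate 2 had a Spearman rho of -0.73 with the GC percentage. With the genes ordered by GC content and cut into 10 equal bins, the lowest bin (median GC 37.03%) had control replicate 1 higher by 0.32 on the log2 scale, and in the highest bin (median 64.5%) the difference was -0.44. The same bins gave a median log2 fold change of -0.41 and 0.57 against control replicate 1, but of -0.09 and 0.11 against control replicate 2. Each change was therefore read against each control library alone and in a second fit, referred to as the GC-offset fit, that removed a smooth curve on GC content from every library.

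**Figure D1:**
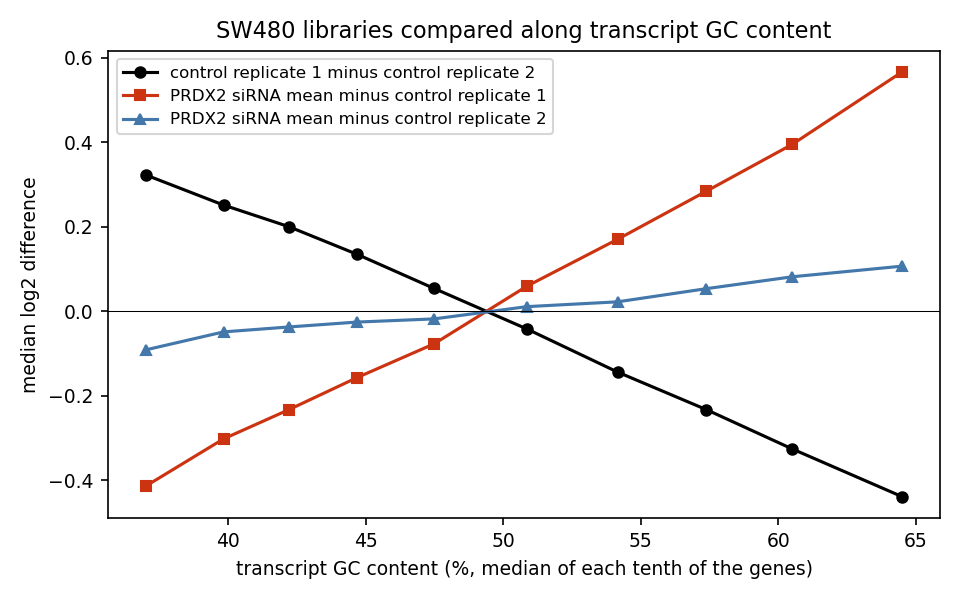
The plot gives the median log2 difference between SW480 libraries (vertical axis) for 10 equal bins of the genes ordered by transcript GC content (horizontal axis, median GC in percent), for control replicate 1 minus control replicate 2, and for the mean of the PRDX2 siRNA libraries minus each control. The control difference falls from 0.32 to -0.44, and the line against control replicate 1 climbs from -0.41 to 0.57, while the line against control replicate 2 stays between -0.09 and 0.11.

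Promoter stretches of genes that changed are shown first, because the letters in capitals are the short motifs that the named factors are known to bind. They were read from RefSeq promoter sequences (assembly GRCh38.p14, 250 bases before to 50 bases after each start) and are printed 5′ to 3′ on the strand of the gene, 30 bases each. Both strands were searched. The motif of the TEAD factors, which carry YAP and TAZ to DNA, was spelled GGAATG, with CATTCC as its other strand, and is in capitals in 3 called genes of the YAP/TAZ list, 1 of them with 2 copies in the stretch:
CTGF, chr6:131951455-131951484, minus strand: ggtggggaGGAATGcgaGGAATGtccctgt
ANKRD1, chr10:90921290-90921319, minus strand: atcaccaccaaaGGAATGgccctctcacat
AXL, chr19:41226531-41226560, plus strand: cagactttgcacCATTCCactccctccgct
NT5E had a promoter entry without the motif, so 3 of the 4 called YAP/TAZ genes with an entry held it, against 16.7% of the 27305 genes with at least 1 entry. The list was drawn up from genes known for YAP/TAZ, and its members that were not called were not searched, so the shares carry no test. The core of the element bound by the aryl hydrocarbon receptor, GCGTG, is in capitals in both called genes of that axis and was present in an entry of 40.6% of those genes:
CYP1A1, chr15:74725569-74725598, minus strand: tccagggaaggagGCGTGgccacacgtaca
AHRR, chr5:321671-321700, plus strand: gggcgggcggctcGCGTGccggggtggggc
The composite element read by ATF4 with C/EBP proteins, TGATGNAA, was present in an entry of 4.46% of those genes and in 1 of the 6 called genes of the ATF4/CHOP list:
ASNS, chr7:97872458-97872487, minus strand: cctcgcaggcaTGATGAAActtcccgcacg
These are matches of letters, and no binding was measured.

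PRDX2 transcript fell from 209 and 246 CPM with control siRNA to 69.5 and 70.7 CPM with PRDX2 siRNA, so the groups stood well apart in the direction the labels give. The log2 fold change was -1.70 (SE 0.12), with a Benjamini-Hochberg adjusted p of 6.18e-04 in edgeR's quasi-likelihood test, and it was -1.58 against control replicate 1 and -1.81 against control replicate 2. The gene lies on chromosome 19 from 12907634 to 12912614 (GRCh37, minus strand). The other 5 peroxiredoxins, which include the close cytosolic relative PRDX1 and the mitochondrial PRDX3, did not pass the test, with log2 fold changes between -0.30 and 0.02. PRDX1 stood at 395 and 343 CPM in the controls and at 378 and 364 CPM after PRDX2 siRNA.

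In SW480 cells 466 of 14112 genes passed an adjusted p of 0.05 (3.3%), of which 172 were higher (1.22%) and 294 lower (2.08%) after PrxII depletion, and 3447 genes had an unadjusted p below 0.05. The changes were small, with a median of 0.76 among the higher genes and -0.75 among the lower ones on the log2 scale. At least a 2-fold change was reached by 46 higher and 67 lower genes, and by 35 and 49 against each control library on its own. In all 466 genes both PRDX2 siRNA libraries lay beyond both controls, as they did in 58.6% of all genes tested (above in 29.6%, below in 29.0%). Each of the 466 also passed against either control alone, as 18.3% of all genes did, but those fits take their spread from the PRDX2 siRNA duplicates only. The GC-offset fit called 1221 genes higher (8.98% of the 13601 with a GC value) and 1308 lower (9.62%), and it retained 451 of the 453 calls that have a GC value, all but EEF1A1 and PRRT4. In the fit without the offset, the called genes had a median GC content of 56.8% among those that were higher and 43.5% among those that were lower, against 49.1% over all genes tested. On the log2 scale of TPM with a pseudocount of 1, limma called 126 higher and 88 lower, and with a pseudocount of 0.1 it called 107 and 70, so most of the limma calls were higher, where most of the edgeR calls were lower. The test, the input and the scaling differ between these fits, and which of them moves the share was not tested. Without PRDX2 siRNA replicate 1 the count was 117 genes, 91 of them among the 466, and without PRDX2 siRNA replicate 2 it was 102 genes, 77 of them among the 466.

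**Figure D2:**
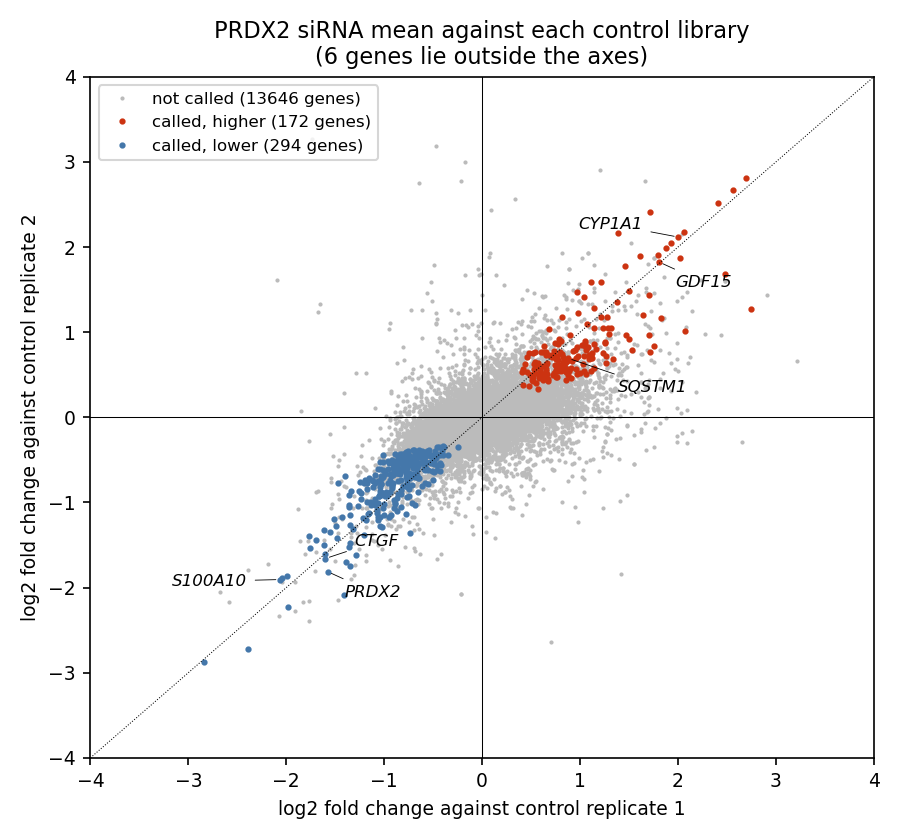
Each point is 1 of the 14112 genes tested, with its log2 fold change of the PRDX2 siRNA mean against control replicate 1 on the horizontal axis and against control replicate 2 on the vertical axis, and 6 genes lie outside the axes. The 172 higher (red) and 294 lower (blue) called genes lie in the quadrants where both values have the same sign, and the grey cloud is wider along the horizontal axis.

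Among the genes with the largest rises, CYP1A1, a cytochrome P450 of xenobiotic metabolism, went from 6.13 and 5.66 CPM in the controls to 24.8 and 24.4 CPM (log2 fold change 2.06, SE 0.18, adjusted p = 0.00149). GDF15, a secreted stress cytokine, went from 18.4 and 18.2 CPM to 63.9 and 64.7 CPM (1.82, SE 0.13, adjusted p = 6.18e-04). In both genes the duplicates differed by less than 1 CPM and the groups lay far apart. GOLGA7B rose from 34.6 and 36.9 CPM to 83.8 and 83.3 CPM, a log2 fold change of 1.22. PARM1, TTYH2, TMEM158 and WFDC3 rose by log2 fold changes of 1.08, 1.14, 1.21 and 1.22, the last from 3.58 and 2.78 CPM. NOS3, the endothelial nitric oxide synthase, stood at 4.86 and 5.87 CPM and then at 10.8 and 13.4 CPM (1.17). POLR2J3 and RGPD6 met the same rule, with log2 fold changes of 1.40 and 1.45, but both share reads with near-identical copies, and the summed level of their families changed by only 0.05 and -0.18 on the log2 scale, so both are uncertain. NOS3 and WFDC3 were not retained without PRDX2 siRNA replicate 2, nor PARM1 and RGPD6 without replicate 1.

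Among the falls, S100A10, the calcium-independent S100 protein that pairs with annexin A2 at the plasma membrane, went from 403 and 362 CPM to 94.6 and 98.4 CPM. Its log2 fold change of -1.99 (SE 0.11) had an adjusted p of 3.10e-04, and the values were -2.06 and -1.91 against the single controls. ANXA1, the phospholipid-binding annexin A1, went from 449 and 376 CPM to 139.9 and 138 CPM (log2 fold change -1.57, SE 0.12). The homeobox gene MSX1 went from 203 and 222 CPM to 80.3 and 79.3 CPM (-1.41). CST4, which encodes the secreted protease inhibitor cystatin S, fell from 24.9 and 29.6 CPM to 5.45 and 7.18 CPM (-2.11). In each of these 4 genes both PRDX2 siRNA libraries lay far below both controls. LYPD5, MAMDC2, RAD21L1 and APLN, the gene of the peptide hormone apelin, fell, with log2 fold changes of -1.92, -1.64, -1.59 and -1.45, from control levels of 8.86 to 23.7 CPM. LOC100093631, a copy of GTF2I, went from 172 and 177 CPM to 33.9 and 14.2 CPM, but the sum of its 3 near-identical genes changed by only -0.16 on the log2 scale, and the read-through gene BLOC1S5-TXNDC5 stood at 20.3 and 3.52 CPM in the controls and at 0 and 0.303 CPM after PRDX2 siRNA, while its sum with TXNDC5 changed by 0.30, so both are uncertain. The 8 other falls named here and that of PRDX2 were retained when either PRDX2 siRNA library was left out.

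**Figure D3:**
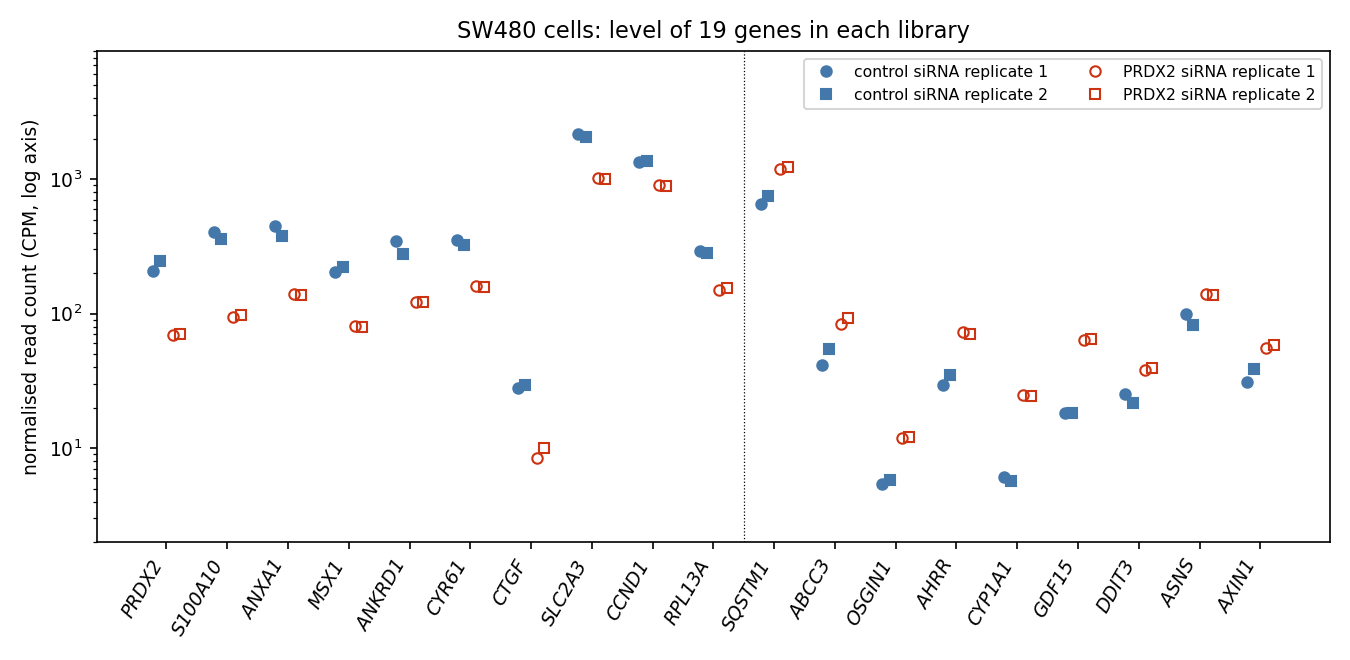
Normalised read counts (CPM, log axis) are plotted for 19 genes in each of the 4 SW480 libraries, with filled symbols for control siRNA, open symbols for PRDX2 siRNA, circles for replicate 1 and squares for replicate 2. The 10 genes left of the dotted line lie lower in both PRDX2 siRNA libraries, such as PRDX2 at 69.5 and 70.7 against 209 and 246 CPM, and the 9 genes to its right lie higher in both.

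NRF2 is released from KEAP1 when its cysteines are oxidized and then drives genes for glutathione, thioredoxin and NADPH supply. Of 26 tested NRF2 targets, 5 rose and 0 fell (19.2%, against 1.22% of all genes called higher), with a list median of 0.25 on the log2 scale against 0.00 over all genes, and of 0.25 against control replicate 2 alone. SQSTM1, the autophagy receptor p62 that binds KEAP1, went from 658 and 746 CPM to 1189 and 1228 CPM (0.78, SE 0.09, adjusted p = 0.00536). OSGIN1, an oxidative stress-induced growth inhibitor, went from 5.43 and 5.77 CPM to 11.9 and 12 CPM (1.09), and the organic anion exporter ABCC3 went from 41.3 and 54.8 CPM to 83.8 and 92.5 CPM (0.87). HMOX1, which degrades heme, went from 16.1 and 17.6 CPM to 26.3 and 27.6 CPM (0.68, adjusted p = 0.047), and MAFG, the small MAF partner of NRF2, rose by 0.53 on the log2 scale. The best known members did not pass, and NQO1, GCLM, TXNRD1, SRXN1 and SLC7A11 had log2 fold changes of 0.05 to 0.53 with adjusted p of 0.14 or more. In the GC-offset fit 14 members were higher and 0 lower, where 8.98% of all genes were called higher and 9.62% lower. Of the 5 calls, 2 were retained without PRDX2 siRNA replicate 1 and 0 without PRDX2 siRNA replicate 2.

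The list of antioxidant enzymes leaves out the peroxiredoxins and takes in thioredoxins, glutaredoxins and their partners. Of its 19 tested genes SOD2, the mitochondrial superoxide dismutase, alone rose, from 68.1 and 70.6 CPM to 97.4 and 98.2 CPM (0.50, adjusted p = 0.045). That single call was 5.26% of the list, against 1.22% of all genes called higher, 0 genes fell, and the list median was 0.07. The call was not retained without either PRDX2 siRNA library. CAT, SOD1, GPX1, GPX2 and TXNIP lay between -0.11 and 0.38. The 7 metallothionein and zinc genes gave 0 calls with a median of 0.33, and the 14 iron and ferroptosis genes gave 0 calls with a median of -0.08. The smallest adjusted p among their key genes were 0.099 and 0.14. These edgeR counts of 0 stood beside 2 and 4 genes at an unadjusted p below 0.05, and 0 genes passed in DESeq2 in either list.

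The aryl hydrocarbon receptor is a ligand-activated factor whose targets include CYP1A1 and its own repressor AHRR, and promoter stretches of both are printed above. Of 9 tested genes of this axis 2 rose (22.2%, against 1.22% of all genes called higher) and 0 fell. In both PRDX2 siRNA libraries 7 lay above both controls (77.8%, against 29.6% of all genes). AHRR went from 29.4 and 34.7 CPM to 72.7 and 70.6 CPM (1.16, SE 0.13, adjusted p = 0.00473). AHR itself, CYP1B1 and TIPARP did not pass, at 0.20, 0.13 and 0.17. Both calls were retained when either PRDX2 siRNA library was left out.

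For the β-catenin pathway, the scaffold and degradation genes were read first. CTNNB1, which encodes β-catenin, was at 1731 and 1763 CPM in the controls and at 1493 and 1496 CPM after PRDX2 siRNA, which did not pass (-0.23, SE 0.07, adjusted p = 0.108). AXIN1 rose from 30.9 and 39.1 CPM to 55.7 and 58.2 CPM (0.70, SE 0.14, adjusted p = 0.038), with log2 fold changes of 0.88 against control replicate 1 and 0.54 against control replicate 2. FBXW11, a paralogue of the ubiquitin ligase adaptor β-TrCP, went from 129 and 119 CPM to 84.7 and 78.8 CPM (-0.60). The tankyrases TNKS and TNKS2, which mark axin for degradation, and APC did not pass and lay between -0.27 and -0.09. Thus 1 of 13 destruction complex and tankyrase genes rose, 1 fell, and the median was -0.09. Each direction held 7.69% of the list, against 1.22% of all genes called higher and 2.08% called lower. In limma with either pseudocount 0 genes of the list passed. Neither call was retained without PRDX2 siRNA replicate 1 or replicate 2, and both were kept in the GC-offset fit.

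The 30 tested β-catenin/TCF targets include genes the study chose on these libraries, so the list is no independent evidence of its direction. Of them 4 fell (13.3%, against 2.08% of all genes called lower) and 2 rose (6.67%, against 1.22% called higher). The median was -0.03. CCND1, which encodes cyclin D1, went from 1330 and 1363 CPM to 897 and 891 CPM (-0.59, SE 0.08, adjusted p = 0.00881). The duplicates lay close together and the groups did not overlap. S100A4, a promoter of motility, went from 635 and 526 CPM to 339 and 351 CPM (-0.75), ID2, an inhibitor of differentiation, from 92.6 and 80.3 CPM to 56.6 and 54.1 CPM (-0.64), and EDN1, the gene of endothelin, from 8.09 and 9.4 CPM to 3.7 and 4.65 CPM (-1.07). SGK1, a kinase downstream of PI3K, rose from 71.2 and 64.6 CPM to 109.9 and 109.8 CPM (0.69), and JUN rose by 0.61. AXIN2, LGR5, NKD1, MYC, CD44 and BIRC5 did not pass, with log2 fold changes of -0.30 to 0.17. AXIN2, a feedback target of the pathway, stood at 693 and 729 CPM in the controls and at 736 and 745 CPM after PRDX2 siRNA. The 8 tested colorectal stem markers gave 0 calls in edgeR and in DESeq2 (2 at an unadjusted p below 0.05) and a median of 0.02, and PROM1 had at most 2 counts. Over all genes the GC-offset fit called 8.98% higher and 9.62% lower. None of the 6 calls was retained without either PRDX2 siRNA library, and the GC-offset fit called 4 members higher and 10 lower.

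ATF4 and CHOP (DDIT3) drive the integrated stress response, in which reduced translation initiation is joined by genes for amino acid supply. Of 26 tested genes of this response 6 rose and 0 fell (23.1%, against 1.22% of all genes called higher), the median was 0.33 on the log2 scale and 0.31 against control replicate 2 alone, and 17 members lay above both controls (65.4%, against 29.6% of all genes). DDIT3 went from 25.1 and 21.8 CPM to 38.1 and 39.5 CPM (0.73, SE 0.14, adjusted p = 0.03). ASNS, which makes asparagine, went from 100.1 and 82.5 CPM to 141 and 139 CPM (0.61), and PHGDH, the entry enzyme of serine synthesis, from 52 and 52.5 CPM to 78.4 and 81.2 CPM (0.61). CEBPB, a C/EBP partner of ATF4, and STC2, a secreted glycoprotein, rose by 0.73 and 0.50, and GDF15, described above, had the largest rise of the list. ATF4 itself did not pass, at 244 and 219 CPM against 235 and 227 CPM, and TRIB3, CHAC1 and SESN2 did not pass at 0.14, 0.76 and 0.43. The GC-offset fit called 13 members higher and 1 lower, against 8.98% of all genes higher and 9.62% lower. Only 1 of the 6 calls was retained without PRDX2 siRNA replicate 1, and likewise 1 without replicate 2.

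Other arms of the protein stress response gave fewer calls, and counts at an unadjusted p below 0.05 are added where edgeR made none. The 20 cytosolic aminoacyl-tRNA synthetases gave 0 calls (6 unadjusted, 0 in DESeq2, median 0.05). So did the 18 ER folding genes (4 unadjusted, 1 in DESeq2, median -0.07), among them HSPA5, the ER chaperone BiP, at 1052 and 924 CPM against 933 and 919 CPM. The GC-offset fit called 7 synthetases higher and 1 lower, and 1 ER folding gene higher and 2 lower. Over all genes that fit called 8.98% higher and 9.62% lower. Among 14 heat-shock chaperones DNAJA1, an HSP70 co-chaperone, fell from 352 and 291 CPM to 216 and 208 CPM (-0.60), and the median was -0.04. With the GC offset 2 of these chaperones were called higher and 2 lower. Of 14 amino acid transporters 9 lay above both controls (64.3%, against 29.6% of all genes) and 3 below them. The GC-offset fit called 8 of them higher and 3 lower. Without the offset edgeR called only the glutamate carrier SLC1A3, which fell from 21.7 and 17.6 CPM to 9.35 and 11.9 CPM (-0.88), while the list median was 0.22. DNAJA1 and SLC1A3 were each 7.14% of their list, against 2.08% of all genes called lower. Neither call was retained without PRDX2 siRNA replicate 1 or replicate 2.

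Several single genes of growth arrest and death signalling were called. CDKN1A, the cyclin-dependent kinase inhibitor p21, rose from 135 and 156 CPM to 226 and 229 CPM (0.64, SE 0.11, adjusted p = 0.0249), and TNFRSF10B, the death receptor DR5 and also a CHOP target, from 119 and 121 CPM to 212 and 200.4 CPM (0.78). MDM2, a RING-type ubiquitin ligase, fell from 66.7 and 60.3 CPM to 32.6 and 32.4 CPM (-0.97, SE 0.12, adjusted p = 0.00881). The 18 genes of the BCL2 family and apoptosis inhibitors had a median of 0.04. Of them 2 fell (11.1%, against 2.08% of all genes called lower) and 0 rose. These were BCL2L1, which encodes BCL-XL, from 412 and 399.9 CPM to 289.6 and 298 CPM (-0.47), and BIRC3, an inhibitor of apoptosis, from 446 and 353 CPM to 224 and 224 CPM (-0.83). None of the calls of this paragraph was retained without either PRDX2 siRNA library.

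Of 32 G2/M genes 3 fell and 0 rose (9.38%, against 2.08% of all genes called lower, median -0.25), namely CENPF, a kinetochore protein, from 602 and 519.9 CPM to 334 and 327 CPM (-0.76), HMMR, a spindle protein, from 227 and 159 CPM to 112 and 108 CPM (-0.81), and ANLN, which organizes the cleavage furrow, from 641 and 553 CPM to 403 and 403 CPM (-0.57). The list median was -0.37 against control replicate 1 and -0.09 against control replicate 2, and the median GC content of the list was 42.1%, below the 49.1% of all genes. In the GC-offset fit the list median was -0.08, and 6 members were lower and 0 higher. That fit called 9.62% of all genes lower and 8.98% higher. CCNB1, CDK1, PLK1, MKI67 and TOP2A lay between -0.25 and 0.20 and did not pass. The 38 DNA replication and G1/S genes gave 0 calls in edgeR (7 at an unadjusted p below 0.05, 2 in DESeq2) and a median of -0.10. Among 13 genes of the cyclin D group CCND1 fell and CDKN1A rose, while CDK4 and CDK6 did not pass, and the median was 0.12. In the MYC network MXD4, a MAX-binding antagonist of MYC, rose from 12.6 and 16.2 CPM to 26.1 and 28.7 CPM (0.92), 1 of 9 genes with a median of 0.14, and MYC stood at 377 and 414 CPM against 442 and 450.5 CPM. Of 10 ID and BMP genes ID2 alone fell (10%), and the median was 0.01. Each direction held 7.69% of the cyclin D group, and the rise was 11.1% of the MYC network. Over all genes 1.22% were called higher and 2.08% lower. None of the calls of these lists was retained without either PRDX2 siRNA library.

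YAP and TAZ are co-activators held in check by the Hippo kinases, and CTGF and CYR61 are their standard readouts. Of 17 tested genes of the pathway 5 fell and 0 rose (29.4%, against 2.08% of all genes called lower), and the median was -0.42. In both PRDX2 siRNA libraries 12 lay below both controls (70.6%, against 29.0% of all genes). CYR61 went from 351 and 325 CPM to 161 and 158 CPM (-1.08, SE 0.10, adjusted p = 0.00262), ANKRD1 from 347 and 278 CPM to 121 and 123 CPM (-1.36), and CTGF from 28.1 and 29.3 CPM to 8.43 and 10.1 CPM (-1.63). In these 3 readouts the duplicates lay close together beside the gap between the groups. NT5E, the ectonucleotidase CD73, went from 164 and 133 CPM to 63.2 and 65.3 CPM (-1.21), and AXL, a receptor tyrosine kinase, from 228 and 244 CPM to 163 and 167 CPM (-0.51). YAP1 itself did not pass, at -0.23 with an adjusted p of 0.216. The list median was -0.39 against control replicate 1, -0.45 against control replicate 2 and -0.38 in the GC-offset fit, which called 11 members lower and 2 higher. Over all genes that fit called 9.62% lower and 8.98% higher. Of the 5 calls 4 were retained without PRDX2 siRNA replicate 1 and 4 without replicate 2.

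**Figure D4:**
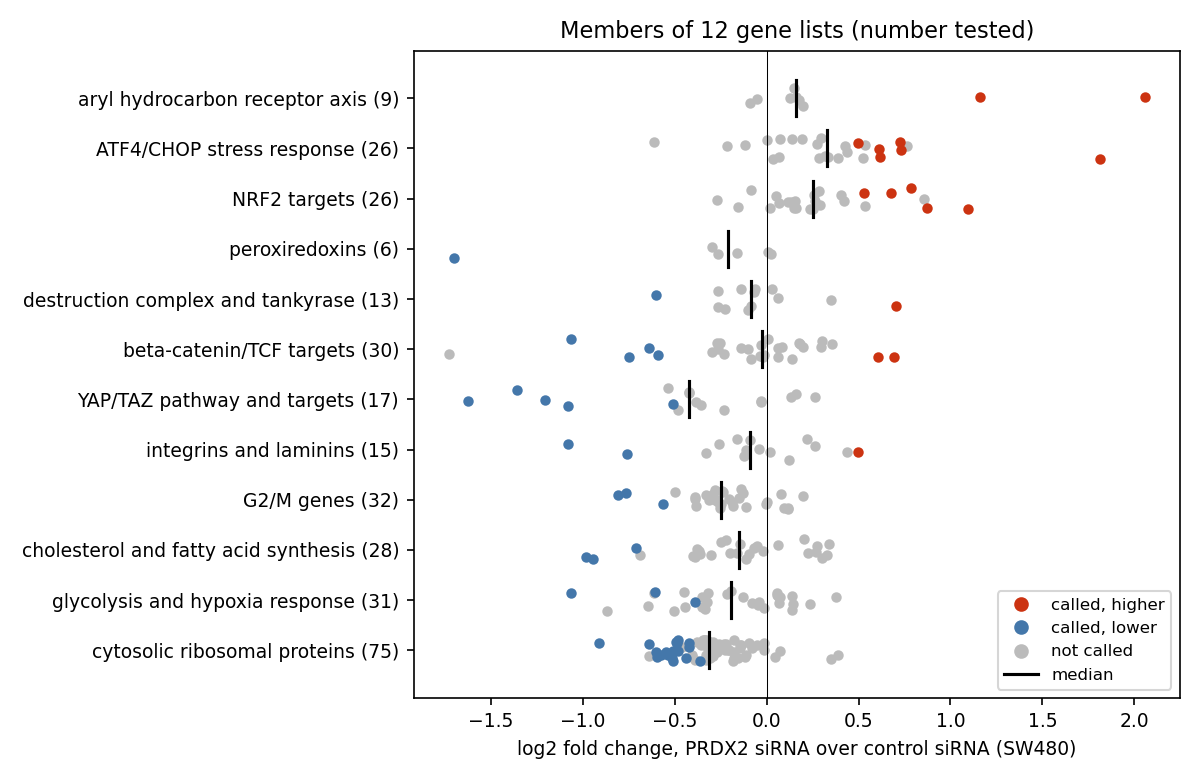
Each point is the log2 fold change (horizontal axis, PRDX2 siRNA over control siRNA) of a tested member of 12 gene lists (vertical axis, number tested in parentheses), with called genes in red or blue, genes not called in grey, and the list median as a black bar. The medians run from -0.42 for the YAP/TAZ list to 0.33 for the ATF4/CHOP list, and most members of every list are grey.

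Signalling lists next to these gave fewer calls. Among 16 MAPK output genes CCND1 alone passed, and DUSP6 and FOSL1 lay at -0.33 and 0.54 with adjusted p of 0.0918 and 0.0573. JUN was the single call, a rise, among 16 AP-1 and immediate early genes, whose median was 0.26 against -0.04 for the MAPK list. Among 8 ERBB receptors and ligands ERBB3, a receptor that signals with ERBB2, fell from 88.3 and 87.6 CPM to 58 and 59.5 CPM (-0.58), and EREG, AREG and HBEGF, ligands of the EGF type, did not pass at -0.65, -0.27 and -0.28. NF-kB defence genes went both ways, with 2 of 17 higher, 2 lower and a median of 0.00. Each direction held 11.8% of the list, against 1.22% of all genes called higher and 2.08% called lower. NFKBIA, the inhibitor IκBα, rose from 82.5 and 83.4 CPM to 119 and 117 CPM (0.51) and TNFAIP2 from 546 and 636 CPM to 895 and 905 CPM (0.61), while SAA1, an acute-phase protein, fell from 160.5 and 148 CPM to 82.5 and 87 CPM (-0.86) and BIRC3 fell as given above. Of 29 interferon-stimulated genes IFI6 and IFIT1 fell, the first from 20.3 and 25.8 CPM to 11 and 14.3 CPM (-0.87) and the other from 3.24 and 4.06 CPM to 1.44 and 1.21 CPM (-1.46), and the median was -0.10. Of 13 MHC class I genes HLA-F rose from 12.8 and 12.7 CPM to 21.7 and 20.4 CPM (0.72), in a family with similar sequences, and the median was 0.18. The falls were 6.25% of the MAPK list, 12.5% of the ERBB list and 6.9% of the interferon list, against the same 2.08%. The rises were 6.25% of the AP-1 list and 7.69% of the MHC list, against 1.22%. None of the calls of these 6 lists was retained without either PRDX2 siRNA library.

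Adhesion and cytoskeletal genes held some of the deepest falls at high level. Of 10 S100 genes and annexin partners 2 fell (20%, against 2.08% of all genes called lower), S100A10 and S100A4, and the median was -0.12. ANXA2, the partner of S100A10, stood at 1182 and 1137 CPM in the controls and at 956 and 1013 CPM after PRDX2 siRNA, which did not pass (-0.24, adjusted p = 0.127). S100A6 and S100A11 lay at -0.02 and -0.11. Of 15 integrins and laminins 2 fell (13.3%) and 1 rose (6.67%, against 1.22% of all genes called higher), and the median was -0.09. LAMC1, a γ chain shared by many laminins, fell from 343 and 362 CPM to 203 and 214 CPM (-0.76, SE 0.10, adjusted p = 0.00923), while the collagen-binding integrin chain ITGA2 rose from 91 and 86.1 CPM to 128 and 122 CPM (0.50). Among 12 metalloproteinases, TIMPs and urokinase genes TIMP2, a metalloproteinase inhibitor, fell from 541 and 571 CPM to 303 and 308 CPM (-0.86), 1 gene rose, and the median was 0.00. Each direction held 8.33% of this list. S100A10 was retained when either PRDX2 siRNA library was left out and TIMP2 only without replicate 2, while S100A4, LAMC1 and ITGA2 were retained in neither case.

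Few markers of epithelial or mesenchymal state passed. Of 18 EMT genes VIM, the mesenchymal intermediate filament, fell from 717 and 763 CPM to 557 and 569 CPM (-0.40, adjusted p = 0.0472), and the median was 0.05. CDH1 did not pass (0.06), nor did FN1 (0.43, adjusted p = 0.0648). Of 8 keratins KRT18 fell from 3519 and 3380 CPM to 2684 and 2652 CPM (-0.37, SE 0.06), and the median was -0.06. KRT8, its filament partner, lay at 2515 and 3208 CPM in the controls and at 2688 and 2763 CPM between them after PRDX2 siRNA, so its direction depended on the control (0.12 against replicate 1 and -0.24 against replicate 2). The 2 keratin genes overlap on opposite strands of chromosome 12, and the kit does not keep strand. Of 12 tubulins TUBB2A rose from 125 and 152 CPM to 205 and 216 CPM (0.61) with a list median of 0.27, which was 0.45 against control replicate 1 and 0.11 against control replicate 2. VIM was 5.56% of the EMT list and KRT18 12.5% of the keratins, against 2.08% of all genes called lower. TUBB2A was 8.33% of the tubulins, against 1.22% of all genes called higher. The 11 A-kinase anchoring proteins (median -0.02) and the 8 intestinal differentiation genes (0.25) gave 0 calls in edgeR and in DESeq2 (2 each at an unadjusted p below 0.05), with CDX1 and CEACAM6 at 3 counts or fewer in every library. The calls of VIM, KRT18 and TUBB2A were not retained without either PRDX2 siRNA library.

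In metabolism, the glucose and sterol lists gave falls and no rises. SLC2A3, the glucose transporter GLUT3, went from 2164 and 2069 CPM to 1024 and 999 CPM (-1.06, SE 0.07, adjusted p = 6.18e-04). LDHA, which makes lactate, fell from 1228 and 1152 CPM to 914 and 899 CPM (-0.39), and BNIP3L, a mitophagy receptor, from 162 and 131 CPM to 94.5 and 97.4 CPM (-0.61). These were 3 of 31 glycolysis and hypoxia genes (9.68%, against 2.08% of all genes called lower), 0 rose, the median was -0.19 (-0.20 against control replicate 2), and SLC2A1 and HK2 did not pass at -0.35 and -0.32. Of 28 cholesterol and fatty acid genes 3 fell (10.7%) and 0 rose, with a median of -0.15. HMGCS1, an early enzyme of the sterol pathway, went from 119 and 89.7 CPM to 51.3 and 54 CPM (-0.98), the sterol carrier STARD4 from 169.9 and 136 CPM to 82.2 and 76.7 CPM (-0.94) and the C4-methylsterol oxidase MSMO1 from 74.8 and 58.1 CPM to 39.3 and 41.8 CPM (-0.71). SCD, a fatty acid desaturase, lay at -0.36 with an adjusted p of 0.0813. FASN stood at 248 and 405 CPM in the controls and at 400.5 and 419.7 CPM after PRDX2 siRNA. For FASN control replicate 2 thus lay close to the PRDX2 siRNA libraries, and control replicate 1 far below them. The GC-offset fit called 15 members lower and 2 higher in the glucose list, and 14 lower and 0 higher in the sterol list. Over all genes it called 9.62% lower and 8.98% higher. SLC2A3 was retained when either PRDX2 siRNA library was left out, STARD4 only without replicate 1, HMGCS1 only without replicate 2, and the other 3 calls in neither case.

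Cytosolic ribosomal protein genes gave more calls than any other list, all of them falls. Of 75 tested cytosolic ribosomal protein genes 19 fell and 0 rose (25.3%, against 2.08% of all genes called lower), 55 lay below both controls in both PRDX2 siRNA libraries (73.3%, against 29.0% of all genes), and the median was -0.32 on the log2 scale, with -0.26 against control replicate 1 and -0.35 against control replicate 2. RPL13A went from 293 and 282 CPM to 151 and 155 CPM (-0.91, SE 0.10, adjusted p = 0.00473), and RPL19 from 1135 and 1263 CPM to 817 and 829.8 CPM (-0.54). RPL26 (-0.60), RPL12 (-0.58), RPL24 (-0.60) and RPS3A (-0.64) fell by similar amounts. The GC-offset fit called 54 members lower and 0 higher with a median of -0.31, against 9.62% of all genes lower and 8.98% higher. These genes have many processed pseudogenes, between which the counting may have split reads, and 0 of the 19 calls were retained without PRDX2 siRNA replicate 1 and 1 without replicate 2. By contrast, 76 mitochondrial ribosomal genes, 72 nuclear-encoded respiratory chain subunits and 34 proteasome subunits gave 0 calls each in edgeR, with medians of -0.08, -0.08 and -0.12. In these lists 14, 17 and 8 genes had an unadjusted p below 0.05, and 0, 1 and 2 genes passed in DESeq2.

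HT29 cells, the other APC-mutant line of the series, were used only to show where the SW480 response differed. In HT29 cells 17.6% of 12961 genes were called, against 3.3% of 14112 in SW480 cells. The SW480 share depended on the fit, and the GC-offset fit called 8.98% of 13601 genes higher and 9.62% lower. No such fit was made for HT29 cells alone. The shares therefore do not show which line responded more widely, and a gene that did not pass in SW480 cells is not thereby unchanged. Of the 466 genes called in SW480 cells 377 could be tested in HT29 cells, where 173 were called in the same direction and 11 in the opposite one. The difference of response, taken from 1 fit of all 8 libraries with an interaction of line and siRNA, was called for 1.12% of 14772 genes and for 87 of the 466, a share that is raised by the choice of genes called in SW480 cells. PRDX2 itself fell further in SW480 cells, with a difference of -0.84 on the log2 scale (SE 0.12, adjusted p = 0.0128), so the strength of depletion and the cell line cannot be told apart in any difference. The falls of the YAP/TAZ readouts CTGF and CYR61 were larger in SW480 cells by differences of -1.52 and -1.23, with HT29 log2 fold changes of -0.10 and 0.15 that did not pass. The rises of SQSTM1, OSGIN1 and ABCC3 also differed, by 0.62, 1.65 and 0.96, and OSGIN1 and ABCC3 were called lower in HT29 cells. CYP1A1 was called higher in HT29 cells too, from 0.205 and 0.209 CPM to 2.54 and 1.37 CPM, but the HT29 controls lay under 3 counts, so no fold is set beside that of SW480 cells. The ligands EREG, AREG and HBEGF were called higher in HT29 cells (0.59, 1.00 and 0.99) and did not pass in SW480 cells, with differences of -1.25, -1.27 and -1.27. NKD1, AKAP12 and TUBA1A were likewise called higher in HT29 cells, and their differences were -2.26, -1.70 and -1.72. For CCND1 the log2 fold changes were -0.59 in SW480 cells and -0.52 in HT29 cells, and for TIMP2 -0.86 and -0.85. Cytosolic ribosomal genes were called lower for 69 of 75 members in HT29 cells, with a smaller median of -0.18 than the -0.32 of SW480 cells, and that difference of medians was not tested. Of the 12331 genes tested in both lines, 1202 were called lower and 979 higher in HT29 cells.

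**Figure D5:**
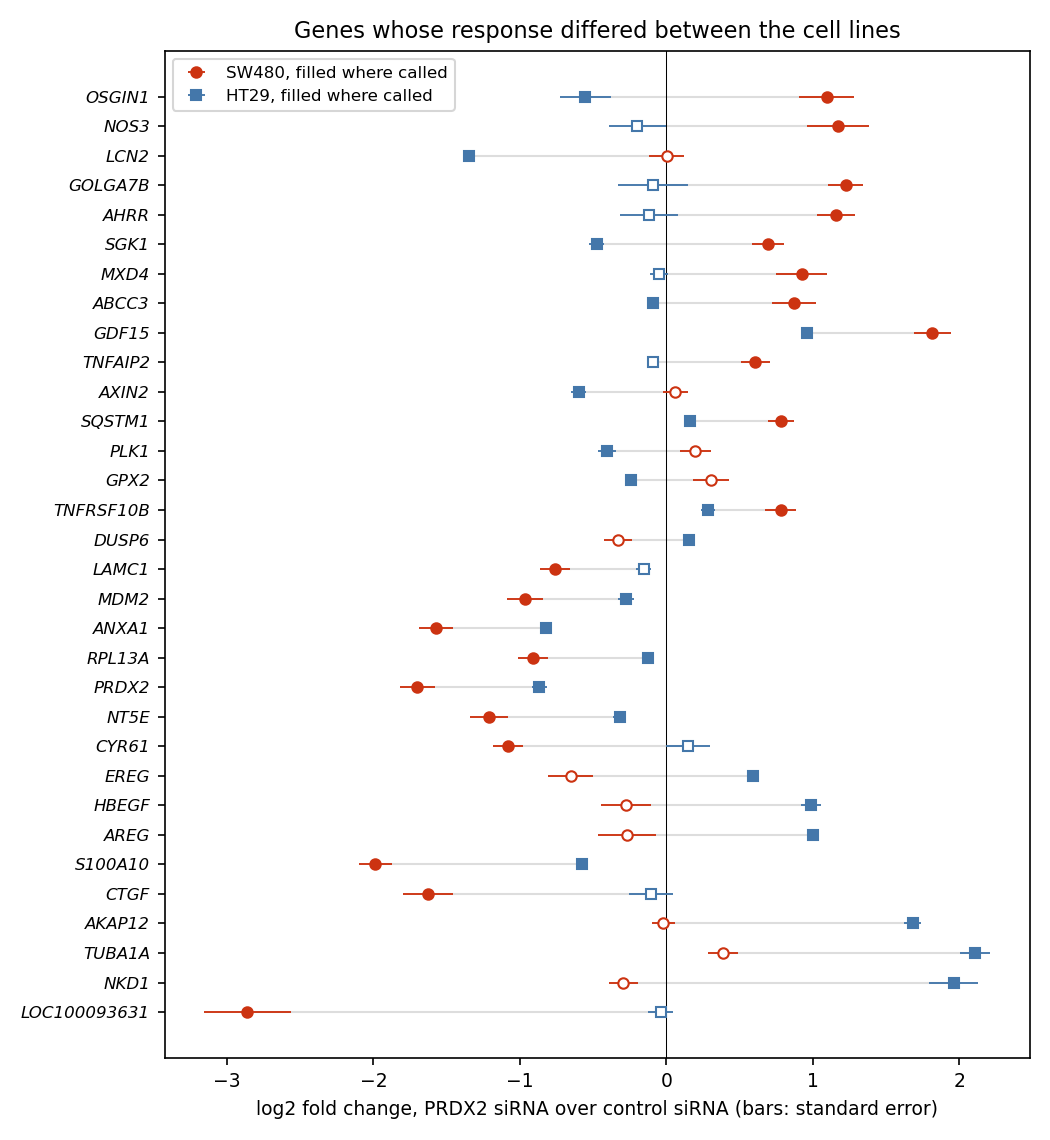
The log2 fold change of PRDX2 siRNA over control siRNA (horizontal axis, bars give 1 SE) is shown in SW480 (red circles) and HT29 cells (blue squares) for the 32 named genes that were tested in both lines and whose responses differed, with filled symbols where the gene was called in that line. The genes are ordered by the difference, from OSGIN1 (1.09 against -0.55) to LOC100093631 (-2.86 against -0.04).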

How the data were processed

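mRNA of 8 human libraries was sequenced with a TruSeq v2 kit that does not keep strand, and each file gives 1 library. The authors aligned reads to hg19 and deposited RSEM expected counts, TPM and FPKM for refGene genes. The same methods were described for the HT29 libraries. The deposited expected counts were rounded and summed to 8857442 to 9724210 per SW480 library. The deposited TPM values were used only in a limma alternative, and the deposited FPKM values were not used.

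The main test was edgeR 4.0.16 (R 4.3.3) on the 4 SW480 libraries, with TMM scaling, a quasi-likelihood fit, a minimum of 10 counts in 2 or more libraries, and a Benjamini-Hochberg adjusted p under 0.05. The interaction was fitted on all 8 libraries. Alternatives were RLE scaling, no filter, DESeq2 1.42.0, limma 3.58.1 on the log2 scale of TPM with a pseudocount of 1 or 0.1, a GC offset (loess of span 0.5 on GENCODE transcript GC, 91.4% of symbols matched to GRCh37), a replicate block, all 8 libraries and each library left out. Duplicates share numbers in the labels, and the correlation of their deviations was 0.114, over 2 pairs only. Intervals are SEs of the fit. With 2 libraries a group, an exact permutation test cannot pass the threshold, so none was used.

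Named genes were PRDX2, the 12 largest rises and 12 largest falls among called genes with a mean of at least 5 CPM (ranked by the smaller of the changes against each control), and key genes and up to 6 called members of each of 44 lists. The members, lists and rules were chosen with earlier results of these data known. Some genes and 1 list that these rules take in are not reported here. The scripts were tested on simulated counts.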

Additional observations from a re-analysis of the deposited data

Results flagged for a closer look

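The response to PRDX2 siRNA differed between SW480 and HT29 cells for 32 of the 148 genes named or considered by name, and these 32 were all tested in both lines. The test was the interaction of line and siRNA at an adjusted p under 0.05 in the edgeR fit of all 8 libraries. Over all genes 1.12% of 14772 differed. Of the 148 genes 82 were called in SW480 cells, and this choice raises the share that differs. Values below are the log2 fold change in SW480 cells minus that in HT29 cells. Of the 32 genes 21 were called in SW480 cells. The difference passed in 5 of 5 alternative fits of the interaction for all of them except OSGIN1, NOS3, CTGF and TNFRSF10B, for which it passed in 4 of 5.

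PRDX2 itself fell further in SW480 cells, by a difference of -0.84. Among redox and xenobiotic genes the difference was 0.62 for SQSTM1, 1.65 for OSGIN1, 0.96 for ABCC3, 0.55 for GPX2, 1.28 for AHRR and 1.37 for NOS3. Stress genes gave 0.85 for GDF15, 0.49 for TNFRSF10B and -0.69 for MDM2.

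In the Wnt and cell cycle groups it was 0.66 for AXIN2, -2.26 for NKD1, 1.17 for SGK1, 0.60 for PLK1 and 0.97 for MXD4. For YAP/TAZ targets and EGF-type signalling it was -1.52 for CTGF, -1.23 for CYR61, -0.89 for NT5E, -1.25 for EREG, -1.27 for AREG, -1.27 for HBEGF and -0.49 for DUSP6.

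Adhesion and cytoskeletal genes gave -1.41 for S100A10, -0.75 for ANXA1, -0.60 for LAMC1, -1.72 for TUBA1A and -1.70 for AKAP12. The rest were TNFAIP2 at 0.70, LCN2 at 1.35, GOLGA7B at 1.31, RPL13A at -0.79, and LOC100093631 at -2.82, which shares reads with GTF2I. Depletion of PRDX2 and cell line cannot be told apart in these differences.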

How the results depend on the processing

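Of the 466 calls in SW480 cells none reversed under any of the 13 alternatives. The count was 493 with RLE scaling and 412 without the filter. It was 686 with DESeq2, which retained 402 of the 466 and gave no adjusted p for 56. It was 2415 with all 8 libraries in 1 fit, 214 and 177 in limma with pseudocounts of 1 and 0.1, which moved the median of all genes by 0.09, 2529 with the GC offset, and 102 to 7364 with 1 library left out. The lowest counts, 117 and 102, came without PRDX2 siRNA replicate 1 or 2, where the control difference sets the spread. The highest came without a control, 3405 without replicate 1 and 7364 without replicate 2, where the biological coefficient of variation fell from 0.0993 to 0.0439. The replicate block gave 1727 calls (858 higher, 869 lower), all 466 among them, and 3009 with the GC offset, but the samples share only a number, since 2 pairs cannot show pairing. PRDX2 kept its direction and its call under every alternative (-1.86 to -1.58). Of 81 other named calls 27 were retained without PRDX2 siRNA replicate 1 and 27 without replicate 2, and at least 48 under every other alternative. Among 66 named genes that were not called, the sign turned for 8 without control replicate 1, 6 without control replicate 2, 3 and 4 without PRDX2 siRNA replicates 1 and 2, 7 in limma and 13 of 65 with the GC offset, and for at most 2 elsewhere. KRT8 turned from -0.07 to 0.11 without control replicate 2 and was then past the threshold, with -0.24 as its lowest value with a library left out. The count of genes differing between the lines was 166, 164 with RLE scaling, 196 with the replicate block, 267 without the filter, 311 with DESeq2 and 1069 with the GC offset. Where not stated the cause was not tested. Depth limits genes near 3 counts (0.303 to 0.347 CPM).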

Other observations

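Some genes outside the lists above were grouped after their values had been seen, and these groups carry no test. Of 50 tested lysosomal enzymes and membrane proteins, which digest cell material in the acidic lumen, 8 rose and 0 fell in SW480 cells, where 1.22% of all genes tested were called higher. These were CTSA, LAMP1, NAGLU, SMPD1, CLN3, GNPTG, DPP7 and SPNS1. The median log2 fold change of the list was 0.31, with 0.24 against control replicate 2 alone and 0.25 in the GC-offset fit. Of the 50 members 34 lay above both controls, where 29.6% of all genes did. Another 6 members lay below both controls, where 29.0% of all genes did. In HT29 cells 5 members were called higher and 3 lower, and the median of the same list was 0.02. Of all 12331 genes tested in both lines, 979 were called higher and 1202 lower in HT29 cells.

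Of 35 autophagy genes SQSTM1, PINK1 and TOLLIP rose, ATG12 and GABARAPL1 fell, and the median was -0.02. Of 16 tested core and linker histone genes 3 fell, HIST1H1C, HIST1H2BD and HIST1H2BK, 0 rose, and 12 lay below both controls, with a median of -0.73. Over all genes 1.22% were called higher, 2.08% were called lower and 29.0% lay below both controls. Histone transcripts mostly lack poly(A) tails, so an mRNA kit captures few of them, and 16 of 73 listed genes could be tested. Among 16 basement membrane and annexin genes NID1, LAMC1 and ANXA1 fell, and the median was -0.02.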
